A study of Homo sapiens with 4 samples.

Results

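GATA1, GATA2, KLF1, TAL1, LMO2, NFE2, GFI1B, ZFPM1, LDB1 and BCL11A, the core transcription factors and cofactors of the red blood cell lineage, were followed in K562-U2AF1 S34F cells with and without SF1-8. These 10 genes were chosen by name among the 62778 named entries of an RNA-seq table, without use of their measured values. Where several entries named a gene, the one with the highest mean count was taken. K562 is an established human erythroleukemia line, here engineered to overexpress U2AF1 S34F, a mutant form of a splicing factor. Every library carried this overexpression, so no comparison with cells lacking the mutant is made. Control cells received the solvent DMSO (2 libraries) and treated cells 30 µM SF1-8 for 48 h (2 libraries). SF1-8 is a small-molecule inhibitor of the UHM domain, by which splicing factors such as U2AF1 bind their partners. The labels do not say whether libraries of a group came from separate cultures, so p-values measure only the spread between these libraries in 1 engineered line. The comparison asks whether the mRNA of the erythroid factors differed after the inhibitor was given.

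GATA1 and GATA2 are zinc-finger factors that bind the same GATA motif, and during red cell development GATA1 replaces GATA2 at shared sites. GATA1 works with the cofactor FOG1, encoded by ZFPM1, and with a complex in which TAL1 binds DNA beside an E protein while LMO2 and LDB1 bridge the DNA-bound factors. KLF1 switches on adult globin and red cell membrane genes, NFE2 pairs with a small MAF protein at globin control regions, and GFI1B and BCL11A repress genes, among them progenitor genes for GFI1B and fetal globin genes for BCL11A.

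The deposited table gives each entry a count and an FPKM value, that is, mapped fragments per kilobase, scaled to the depth of the library. The length used for this need not be the genomic span of the entry. Counts summed to between 45522905 and 67554610 per library, lowest in DMSO 1. Whole counts of 4 were the commonest values above 0, so a count does not stand for 1 read and no counting error was computed. Levels are in FPKM, and fold changes are log2 of SF1-8 over DMSO from edgeR's quasi-likelihood test on the counts, with Benjamini-Hochberg adjustment over the 26167 entries that passed its filter on low counts. Of the 10 genes, 9 passed this filter.

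For 8 of the 10 genes, RefSeq promoter windows of 300 bases (250 before and 50 after a start site, GRCh38.p14) were at hand, 15 windows in all, and none for NFE2 and LMO2. The windows of KLF1, TAL1 and GFI1B shown are those near whose RefSeq start site the assembled entry began and which hold letters of the GATA motif, which GATA1 and GATA2 read. The KLF1 window lies at chr19:12887152-12887451 on the minus strand, and the KLF1 entry began exactly at its start site. The TAL1 window lies at chr1:47232286-47232585 on the minus strand, and the TAL1 entry began 115 bases after its start site. The GFI1B window lies at chr9:132945281-132945580 on the plus strand, and the GFI1B entry began 2 bases after its start site. Capitals mark matches, on either strand, to the letters GATA with A or T before them and A or G after them, 6 letters in all.
KLF1 promoter: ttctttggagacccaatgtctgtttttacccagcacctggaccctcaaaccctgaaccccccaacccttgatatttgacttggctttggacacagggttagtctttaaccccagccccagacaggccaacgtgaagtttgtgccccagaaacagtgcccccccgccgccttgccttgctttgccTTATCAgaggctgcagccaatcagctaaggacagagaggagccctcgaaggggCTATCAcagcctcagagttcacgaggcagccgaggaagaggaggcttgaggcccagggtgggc
TAL1 promoter: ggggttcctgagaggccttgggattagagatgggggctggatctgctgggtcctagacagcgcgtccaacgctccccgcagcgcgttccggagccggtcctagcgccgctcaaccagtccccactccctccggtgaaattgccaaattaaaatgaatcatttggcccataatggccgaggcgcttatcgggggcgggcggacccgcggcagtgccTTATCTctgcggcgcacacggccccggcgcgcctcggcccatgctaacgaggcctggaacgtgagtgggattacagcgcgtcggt
GFI1B promoter: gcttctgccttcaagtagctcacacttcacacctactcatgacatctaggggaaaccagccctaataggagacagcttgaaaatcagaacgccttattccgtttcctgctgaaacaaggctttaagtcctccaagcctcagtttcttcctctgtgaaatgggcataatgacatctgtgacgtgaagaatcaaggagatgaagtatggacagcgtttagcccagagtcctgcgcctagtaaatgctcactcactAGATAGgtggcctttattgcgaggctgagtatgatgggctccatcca
The KLF1 matches began 66 and 13 bases before the start site and the TAL1 match 35 bases before it, all on the reverse strand. The GFI1B match began 3 bases after the start site, on the forward strand. The motif was found in 4 of the 15 windows, belonging to 3 of the 8 genes (KLF1, TAL1 and GFI1B), and in 24.97% of all 35116 RefSeq promoter windows of this length. The E-box letters CANNTG, of the kind read by TAL1, were found in 7 of the 15 windows and in 68.68% of all windows. CCNCNCCC, the kind of letters read by KLF1, was found in 11 of the 15 windows and in 56.18% of all windows, and TGANTCA, the core of the NFE2 site, in 1 of the 15, the TAL1 window shown, and in 7.709% of all windows. Matches were searched on both strands and could overlap. A match is a description of the letters and not a site of binding.

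**Figure D1:**
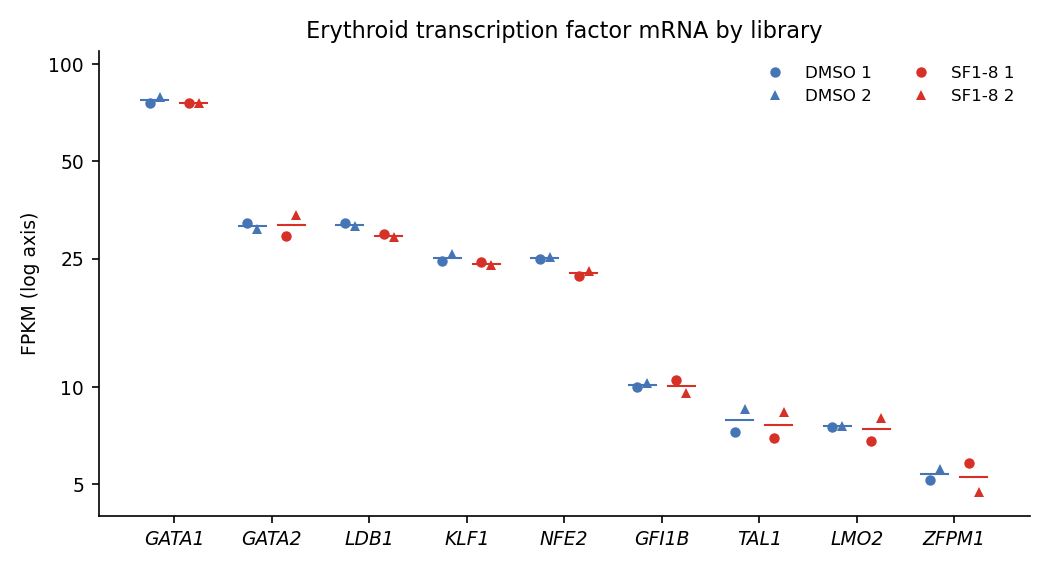
FPKM (log axis) of 9 erythroid transcription factors in each library, with DMSO in blue, SF1-8 in red, replicate 1 as circles, replicate 2 as triangles and bars at the mean of the 2 libraries. GATA1 sits near 76 in both SF1-8 libraries and ZFPM1 lowest, between 4.74 and 5.83. BCL11A, listed at 0 in 3 libraries, is not drawn.

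The factors spanned a wide range of levels per length, with GATA1 the highest in FPKM. Its mean over the 4 libraries was 76.7 FPKM, above 99.0% of the entries tested. GATA2 followed at 31.7 FPKM and LDB1 at 30.6, with overlapping ranges over the libraries, then KLF1 at 24.7 and NFE2 at 23.8, which overlapped as well. GFI1B stood alone at 10.1 FPKM, TAL1 at 7.78 and LMO2 at 7.49 overlapped, and ZFPM1 was at 5.33, above 79.0% of entries tested. These levels are per length, which need not be the genomic span of the entry. In CPM, the counts scaled to library size by TMM and not divided by length, TAL1 (194 to 240), GATA2 (201 to 232) and LDB1 (165 to 181) were above GATA1 (138 to 152) in every library, so the lead of GATA1 rests on the length by which each entry was divided. The TAL1 entry held 18 transcripts, 12 of them assembled rather than annotated, and reached past the annotated 3′ end of the gene.

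Of the 9 genes tested, 0 had an adjusted p under 0.05 for SF1-8 against DMSO in edgeR's quasi-likelihood fit, beside 0.0420% of all entries tested (11 of 26167). At an unadjusted p under 0.05 the count was also 0 of 9, against 4.33% of all entries (1132), and DESeq2 called 0 of the 9 at either threshold. The smallest unadjusted p among the genes was 0.180 and the smallest adjusted p 0.970. The log2 fold changes lay between −0.13 and 0.035, with 5 below 0 and 4 above. Their median was −0.0050, beside −0.011 over all entries tested, and the median of their absolute values was 0.026, beside 0.216 over all entries. The 95% intervals of the 9 genes reached from −0.38 (TAL1) to 0.37 (ZFPM1), that is, from 0.768-fold to 1.29-fold. In this fit the spread of a gene is moderated by that of other entries. An interval thus does not rest on the gene's own 2 libraries a group alone. In FPKM, 4 of the 9 (GATA1, KLF1, NFE2 and LDB1) were lower in both SF1-8 libraries than in either DMSO library, against 20.0% of all entries tested, and 0 of 9 were higher in both, against 14.2%. In CPM only NFE2 and LDB1 kept this separation, 2 of 9 against 18.1% of all entries.

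**Figure D2:**
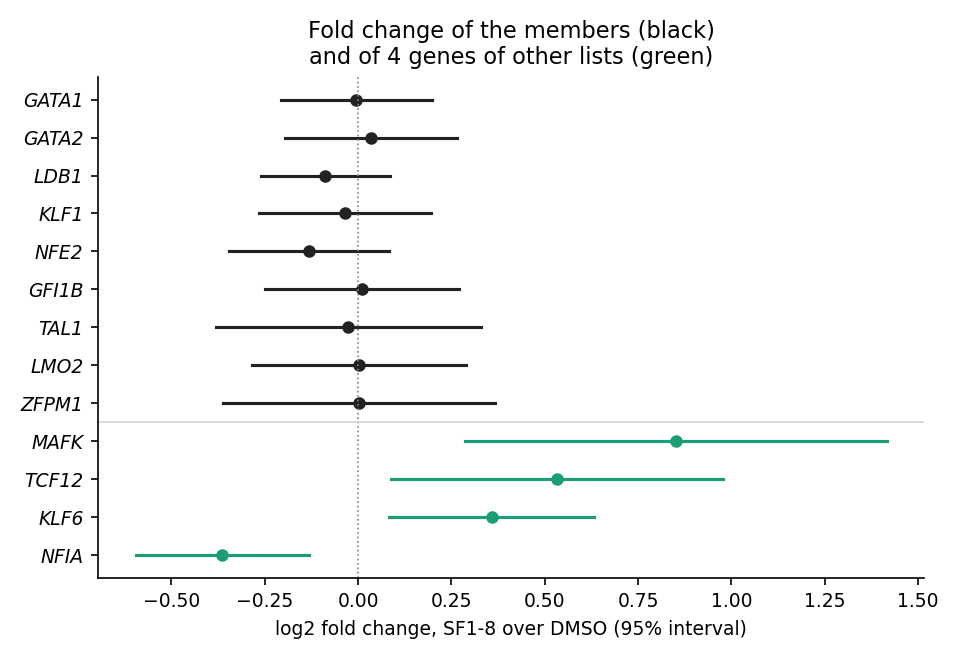
Log2 fold change of SF1-8 over DMSO (x axis) with 95% intervals from edgeR's quasi-likelihood fit, for the 9 genes tested (black, ordered by level) and for 4 genes of other lists with an unadjusted p under 0.05 (green). The 9 black points lie between −0.13 and 0.035 and each of their intervals spans 0, while MAFK lies farthest from 0, at 0.85.

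GATA1, the master activator of red cell genes, was measured on chromosome X from 48786562 to 48794311 (GRCh38, plus strand), an entry whose annotated coding transcripts encode proteins of 334 to 413 amino acids. It was at 76.0 and 79.1 FPKM in DMSO 1 and 2 and at 75.9 and 75.9 in SF1-8 1 and 2. The 2 SF1-8 libraries lay just under the lower DMSO library, and the group means were 77.6 ± 2.19 and 75.9 ± 0.0056 FPKM (SD, n = 2 each). The log2 fold change was −0.0050 (SE 0.080, 95% interval −0.21 to 0.20, edgeR adjusted p = 0.998). In percent, the interval ran from −13.4% to 14.7%.

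GATA2, the factor of stem and progenitor cells and of early erythroid cells, was measured on chromosome 3 from 128479427 to 128493201 (minus strand), a stretch that also holds the antisense gene GATA2-AS1. Since the sources do not state whether counting used strand, reads of the pair cannot be told apart. GATA2 was at 32.3 FPKM in DMSO 1 and 30.9 in DMSO 2, against 29.4 and 34.1 in SF1-8 1 and 2. Both DMSO values lay between the SF1-8 values, and the group means were 31.6 ± 0.997 and 31.8 ± 3.38 FPKM (SD, n = 2 each). GATA2 thus had a log2 fold change of 0.035 (SE 0.090, 95% interval −0.20 to 0.27, edgeR adjusted p = 0.983).

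The balance of the 2 GATA factors was taken as the ratio of their FPKM values. GATA1 exceeded GATA2 by 2.35-fold and 2.56-fold in DMSO 1 and 2 and by 2.59-fold and 2.22-fold in SF1-8 1 and 2. In CPM, without division by length, GATA2 was above GATA1 in all 4 libraries. The SF1-8 libraries thus held both the highest and the lowest ratio. On the log2 scale the ratio was 1.30 ± 0.086 in DMSO and 1.26 ± 0.15 in SF1-8 (SD, n = 2 each), a difference of −0.035 (two-sided exact permutation p = 1, where 0.333 is the smallest that 2 against 2 allow).

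ZFPM1, which encodes the GATA1 cofactor FOG1, was measured on chromosome 16 from 88453280 to 88537031 (plus strand), together with the antisense gene AC116552.1. It was at 5.16 and 5.58 FPKM in DMSO 1 and 2 and at 5.83 and 4.74 in SF1-8 1 and 2. As with GATA2, the DMSO libraries lay between the SF1-8 libraries, but here SF1-8 1 was the higher. For ZFPM1 the log2 fold change was 0.0025 (SE 0.14, 95% interval −0.36 to 0.37, edgeR adjusted p = 0.999), with the largest SE of the 9 genes.

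TAL1, the basic helix-loop-helix factor that anchors the bridging complex to DNA, was measured on chromosome 1 from 47201077 to 47232220 (minus strand), overlapping the antisense gene AL135960.1. It was at 7.29 FPKM in DMSO 1 and 8.54 in DMSO 2, against 6.95 and 8.35 in SF1-8 1 and 2. The first library of each group was the lower, and the groups overlapped. On the counts, the log2 fold change of TAL1 was −0.026 (SE 0.14, 95% interval −0.38 to 0.33, edgeR adjusted p = 0.992).

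LMO2, the LIM-only protein that links TAL1 to LDB1, was measured on chromosome 11 from 33858576 to 33881915 (minus strand). This entry ends short of the annotated gene, which reaches 33892289 at its 5′ side, and it overlaps the antisense gene AC132216.1. LMO2 was at 7.53 and 7.58 FPKM in DMSO 1 and 2 and at 6.83 and 8.04 in SF1-8 1 and 2. The DMSO libraries, with a coefficient of variation of 0.523%, lay between the SF1-8 libraries, with one of 11.6%. From the counts, LMO2 had a log2 fold change of 0.0027 (SE 0.11, 95% interval −0.28 to 0.29, edgeR adjusted p = 0.999).

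LDB1, whose protein dimerizes and so joins distant regulatory elements, was measured on chromosome 10 from 102106489 to 102120368 (minus strand). It was at 32.2 FPKM in DMSO 1 and 31.5 in DMSO 2, against 29.7 and 29.1 in SF1-8 1 and 2. Both SF1-8 libraries lay below both DMSO libraries, with group means of 31.9 ± 0.545 in DMSO and 29.4 ± 0.413 in SF1-8 (SD, n = 2 each). The log2 fold change was −0.088 (SE 0.068, 95% interval −0.26 to 0.085, edgeR adjusted p = 0.970), the smallest SE of the 9 genes.
A second entry named for LDB1 lay inside the gene at 102118448 to 102119302, had no strand and shared 0 bases with annotated LDB1 exons. It was at 1.54 and 1.68 FPKM in DMSO 1 and 2 and at 0.763 and 1.13 in SF1-8 1 and 2, with SF1-8 below DMSO in each library. Its log2 fold change was −0.74 (SE 0.34, 95% interval −1.60 to 0.12, edgeR unadjusted p = 0.0776, adjusted p = 0.970), so this intronic stretch did not pass the test either. The difference between the 2 LDB1 entries was not tested.

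KLF1, the zinc-finger activator of late red cell genes, was measured on chromosome 19 from 12884422 to 12887201 (minus strand), the entry that starts at the promoter shown above. Its annotated coding transcript encodes 362 amino acids. KLF1 was at 24.5 FPKM in DMSO 1 and 25.9 in DMSO 2, against 24.4 and 23.9 in SF1-8 1 and 2. The SF1-8 libraries lay below both DMSO libraries in FPKM, by a narrow margin from DMSO 1, while in CPM the DMSO 1 value of 75.1 was the lowest of the 4. Its log2 fold change was −0.035 (SE 0.091, 95% interval −0.27 to 0.20, edgeR adjusted p = 0.983).

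NFE2, the large subunit of the dimer that binds globin control regions, was measured on chromosome 12 from 54292111 to 54301015 (minus strand), where the annotation also places AC078778.2 on the plus strand. It was at 24.9 and 25.3 FPKM in DMSO 1 and 2 and at 22.1 and 22.9 in SF1-8 1 and 2. NFE2 had the largest absolute log2 fold change of the 9 genes, −0.13 (SE 0.084, 95% interval −0.35 to 0.084), with an unadjusted p of 0.180 and an adjusted p of 0.970 by edgeR. The 2 groups did not overlap in FPKM (25.1 ± 0.315 against 22.5 ± 0.555, SD, n = 2 each). In limma on log2(FPKM + 1) its unadjusted p was 0.0350, with an adjusted p of at least 0.797 under every alternative tried.

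GFI1B, the repressor shared by red cell and platelet precursors, was measured on chromosome 9 from 132945533 to 132991687 (plus strand). This stretch overlaps 4 other annotated genes, among them the protein-coding gene TSC1 on the minus strand. GFI1B was at 10.0 FPKM in DMSO 1 and 10.3 in DMSO 2, against 10.5 and 9.56 in SF1-8 1 and 2. The DMSO libraries again lay between the SF1-8 libraries. The log2 fold change was 0.010 (SE 0.10, 95% interval −0.25 to 0.27, edgeR adjusted p = 0.995). A second GFI1B entry, from 132944000 to 132953763, held counts of 4, 0, 8 and 2 in DMSO 1, DMSO 2, SF1-8 1 and SF1-8 2 and was not tested.

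BCL11A, the repressor of fetal globin genes, was measured on chromosome 2 from 60450520 to 60554467 (minus strand). It had a count of 8 in DMSO 1 (0.00528 FPKM) and 0 in the other 3 libraries, and its entry failed the filter on low counts, so no fold change is given. Among the globins that BCL11A is known to repress, the embryonic and fetal genes HBE1, HBG1 and HBG2 were held in 1 long entry, from 5232678 to 5685074 on chromosome 11, that also names HBD, HBBP1, AC104389, TRIM5, OR51B5 and OR51A10P, so its values are not those of the globins alone. The entry lay at 33.3 and 29.3 FPKM in DMSO 1 and 2 and at 27.5 and 27.8 in SF1-8 1 and 2. The log2 fold change of this entry was −0.15 (95% interval −0.30 to 0.0053, edgeR unadjusted p = 0.0558). HBB, the adult beta-globin gene, was at most at 0.0689 FPKM.

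Paralogs of the 10 factors were read from a list of 32 genes, 24 of which were tested. The only other GATA, TAL, LMO, GFI1, LDB or BCL11 family genes with a mean above 1 FPKM were LYL1 and LMO4. LYL1, a close relative of TAL1 that binds the same partners, was at 37.9 FPKM in DMSO 1 and 37.3 in DMSO 2, against 36.6 and 36.0 in SF1-8 1 and 2. This was above TAL1 in FPKM in every library, whereas in CPM LYL1 (142 to 149) was below TAL1 (194 to 240) in every library. GATA3 was listed at 0 in DMSO 2 and SF1-8 1 and at most at 0.243 FPKM, GFI1 lay between 0.247 and 0.318 FPKM, and LMO1, LMO3 and BCL11B were listed at 0 in all 4 libraries. Among relatives of KLF1, KLF16 (20.4 to 23.8 FPKM) and KLF3 (11.3 to 12.6), a repressor that competes with KLF1, were the highest, and among relatives of NFE2, NFE2L1 (18.0 to 22.5). ZFPM2, the relative of ZFPM1, lay between 1.90 and 2.76 FPKM. At an adjusted p under 0.05 by edgeR 0 of the 24 were called, and at an unadjusted p under 0.05 1 of 24, against 4.33% of all entries. This was KLF6, a widely expressed zinc-finger factor. KLF6 was at 2.99 and 2.51 FPKM in DMSO 1 and 2 and at 3.43 and 3.48 in SF1-8 1 and 2 (log2 fold change 0.36, 95% interval 0.084 to 0.63, edgeR unadjusted p = 0.0200, adjusted p = 0.970). The next smallest p was that of KLF5, at 0.0533 to 0.371 FPKM, with a log2 fold change of −1.20 (edgeR unadjusted p = 0.159). The median of the 24 was −0.029, beside −0.011 over all entries.

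Partners and cofactors formed a list of 34 genes, all tested: E proteins, SSBP and ETO-family proteins, RUNX1 with CBFB, the LSD1/CoREST and NuRD repressor complexes, small MAF proteins and coactivators. None passed the adjusted threshold by edgeR (0 of 34), and 2 of 34 had an unadjusted p under 0.05, against 4.33% of all entries. Of the 34, 26 had log2 fold changes above 0 and 8 below, with a median of 0.076, beside −0.011 over all entries tested. The first of the 2 was MAFK, a small MAF protein that dimerizes with NFE2. MAFK was at 4.03 and 2.46 FPKM in DMSO 1 and 2 and at 5.70 and 5.73 in SF1-8 1 and 2. The SF1-8 libraries lay close together and above both DMSO libraries, which differed between themselves (log2 fold change 0.85, SE 0.22, 95% interval 0.29 to 1.42, edgeR unadjusted p = 0.0114, adjusted p = 0.970). Without DMSO replicate 2 the log2 fold change of MAFK was 0.58, and without DMSO replicate 1 it was 1.20. The other small MAF genes did not share this order: MAFG, in an entry it shares with SIRT7, was at 10.8 and 6.03 FPKM in DMSO 1 and 2 and at 5.68 and 11.5 in SF1-8 1 and 2, and MAFF lay under 1 FPKM in all 4 libraries.
The second was TCF12, an E protein that pairs with TAL1, at 8.27 FPKM in DMSO 1 and 5.60 in DMSO 2, against 9.19 and 10.4 in SF1-8 1 and 2 (log2 fold change 0.53, SE 0.17, 95% interval 0.087 to 0.98, edgeR unadjusted p = 0.0275, adjusted p = 0.970). DMSO 2 was the lowest library for both genes, and without it the log2 fold change of TCF12 was 0.32. TCF3, the other E protein of the list, was at 16.9 FPKM in DMSO 1 and 22.1 in DMSO 2, against 21.6 and 21.8 in SF1-8 1 and 2. KDM1A and RCOR1, the LSD1 and CoREST subunits that GFI1B recruits, had log2 fold changes of 0.039 and 0.094, and CBFA2T3, an ETO-family member of the TAL1 complex, −0.21 (edgeR unadjusted p = 0.129).

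Target genes of the factors, taken as red cell globin, heme, membrane and blood group genes, were 47 genes in 42 entries, of which 40 were tested. None of the 40 passed the adjusted threshold by edgeR, 1 of 40 had an unadjusted p under 0.05, against 4.33% of all entries, and 20 had log2 fold changes below 0 and 20 above, with a median of 0.0019. ALAS2, the first enzyme of heme synthesis in red cells, was at 11.1, 9.53, 9.79 and 9.15 FPKM in DMSO 1, DMSO 2, SF1-8 1 and SF1-8 2. The erythroid label was carried by RHAG (134 to 149 FPKM), the Rh-associated glycoprotein, by TFRC (95.7 to 116), the transferrin receptor, and by the entry of the alpha-globin genes HBA1 and HBA2 (76.2 to 86.7). Genes of more mature red cells were low, with SLC4A1, the anion exchanger of the red cell membrane, at most at 0.175 FPKM and AHSP, the alpha-globin chaperone, between 0.731 and 1.09.

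**Figure D3:**
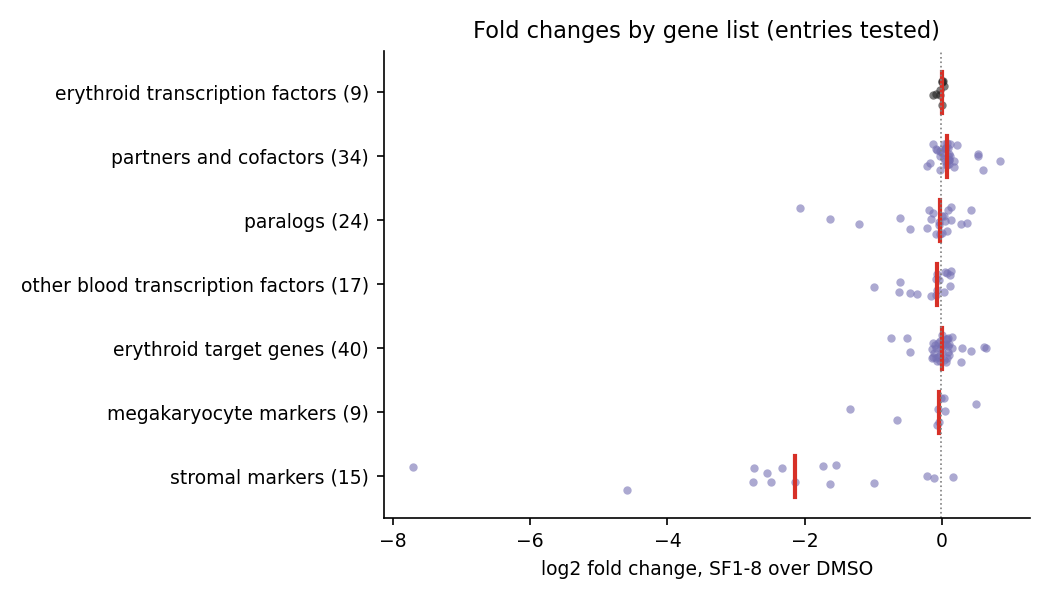
Log2 fold change of SF1-8 over DMSO (x axis) for each entry tested in 7 gene lists, with the number tested in brackets, a red bar at each list's median and a dotted line at the median of all 26167 entries (−0.011). The 9 erythroid transcription factors (black) lie within 0.13 of 0, and the stromal markers have a median of −2.13.

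U2AF1, the gene overexpressed in every library, was at 11.4 and 11.5 FPKM in DMSO 1 and 2 and at 11.9 and 12.0 in SF1-8 1 and 2 (log2 fold change 0.085, edgeR adjusted p = 0.970). Its near-identical copy U2AF1L5 lay between 11.1 and 11.4 FPKM, and reads of the 2 could be divided between them, so this level cannot show the overexpression. Stromal genes stood apart from the other lists. Of 15 stromal markers, all tested, 14 had log2 fold changes below 0, beside 13510 of 26167 over all entries tested. By edgeR 8 of the 15 had an unadjusted p under 0.05, beside 4.33% of all entries. None passed the adjusted threshold, and the median was −2.13. The list holds COL1A1, COL1A2, COL3A1, COL5A1 and COL6A1, which the paper on these data names as down-regulated in the same libraries. These counts are therefore not independent of that earlier result. The summed level of the 15 markers was 24.7 FPKM in DMSO 1 and 16.4 in DMSO 2, against 12.5 and 8.41 in SF1-8 1 and 2, and 0 of the 15 were listed at 0 in every library. Among the defining ones, COL1A1 ran from 5.39 FPKM in DMSO 1 to 0.0982 in SF1-8 2, and LUM was listed at 0 in both SF1-8 libraries. COL5A1 and COL6A1 had the smallest p-values, with log2 fold changes of −1.63 and −1.73 (edgeR adjusted p = 0.868 and 0.970). Both were low, at 0.0726 to 0.353 and 0.0918 to 0.437 FPKM. THY1, FBLN1 and SPARC, the 3 markers within 0.5 of 0, had log2 fold changes of 0.15, −0.12 and −0.22. The part of these genes in the values of the erythroid factors was not tested. In bulk RNA, fewer cells of a type and less RNA per cell cannot be told apart.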

How the data were processed

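Total RNA depleted of ribosomal RNA was sequenced from 2 DMSO and 2 SF1-8 libraries, grouped by the sample labels. The submitters' processing notes name cutadapt, FastQC, Bowtie2, HISAT2 and StringTie and the build hg38, without versions or settings. For each entry of an assembly merged with Ensembl genes, the authors deposited FPKM values, normalized for length and depth and with 0.0001 in place of 0, and the deposited values taken here as estimated counts are whole numbers without normalization.

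Entries that name no gene (2095 of 64873, 0.372% of counts) were left out. Counts were scaled by TMM (factors 0.9732 to 1.05), filtered by filterByExpr and tested with edgeR 4.0.16 in R 4.3.3 by glmQLFTest with Benjamini-Hochberg adjustment. The procedure was also run on simulated data with changes much larger than those of the erythroid factors. That run cannot show whether changes as small as theirs would be found. DESeq2 1.42.0, limma 3.58.1 on log2(FPKM + 1) or other scalings, other filters, a replicate block and leaving out each library were the alternatives, 13 in all. Precision rests on the spread between 2 libraries a group, which edgeR moderates by that of other entries. Gene structures are from GENCODE 29 and promoters from RefSeq GRCh38.p14. Beyond the 10 members, the 2 genes of each list with the smallest unadjusted p, any gene past the adjusted threshold and U2AF1 are named by rule, and other genes were named after their values were seen. The members and lists were chosen with earlier results of these data known. Proteins and splicing were not analysed here. One gene named by the rule is included in the counts, but its values are not reported here.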

Additional observations from a re-analysis of the deposited data

How the results depend on the processing

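Under 13 alternatives, 0 of 9 erythroid factors passed the adjusted threshold, and 32 of the 117 fold changes took the opposite sign. NFE2 and LDB1 stayed below 0 under all 13, between −0.29 and −0.072 and between −0.25 and −0.060. At an unadjusted p under 0.05, limma on log2(FPKM + 1) and on log2(FPKM + 0.1) gave 1 factor each (NFE2) and quantile normalization 2 (NFE2 and LDB1). Of all 26167 entries, the same fits put 1493, 1499 and 1498 under that threshold, in this order. With FPKM rescaled to TPM the factors' median moved to −0.165, where that of all entries was −0.132, and left-out libraries gave medians from −0.090 (without DMSO replicate 1) to 0.054 (without DMSO replicate 2).

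The sign turned for LMO2, GFI1B and ZFPM1 with counts divided by 4 (−0.010, −0.0028 and −0.010), in limma on log2(FPKM + 0.1) (−0.028, −0.018 and −0.028), on log2(FPKM + 1) (−0.024, −0.016 and −0.024), on TPM (−0.157, −0.149 and −0.156) and after quantile normalization (−0.024, −0.024 and −0.022). GATA2 turned on TPM (−0.13) and after quantile normalization (−0.024), U2AF1 on TPM (−0.074) and GATA1 without the filter on low counts (0.0024). Leaving out each library, the ranges were −0.072 to 0.071 for GATA1, −0.067 to 0.14 for GATA2, −0.11 to 0.052 for KLF1, −0.17 to 0.14 for TAL1, −0.11 to 0.11 for LMO2, −0.065 to 0.090 for GFI1B and −0.16 to 0.15 for ZFPM1. The cause was not tested.

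Replicates of the groups share numbers, and deviations of equally numbered libraries correlated at r = 0.0165 over 26167 entries. With 2 libraries a group, this value cannot settle whether equal numbers mark paired cultures, and the labels do not say. With a replicate block 0 of 9 factors and 0 of all entries passed the adjusted threshold (11 without it), and LMO2 and ZFPM1 were at −0.00077 and −0.0025. Over all entries DESeq2 called 163, no filter 31, limma 0 or 1, and fits without a library between 0 (DMSO replicate 1) and 30 (SF1-8 replicate 1). DESeq2 put THBS1 and COL5A1 past the adjusted threshold (adjusted p = 0.0456 and 0.0340). With 1 library left out, the unadjusted p rose above 0.05 for TCF12 (0.0668 without SF1-8 replicate 2), NFIA (0.0543 without SF1-8 replicate 2) and KLF6 (0.0721, 0.0636 and 0.0662 without DMSO replicate 2, SF1-8 replicate 1 and SF1-8 replicate 2), by edgeR.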

Other observations

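Other blood transcription factors were read from a list of 19 genes, 17 of them tested. By edgeR 0 passed the adjusted threshold and 1 of 17 had an unadjusted p under 0.05, against 4.33% of all entries. This was NFIA, a factor of red cell commitment, at 1.21 and 1.27 FPKM in DMSO 1 and 2 and at 0.959 and 0.935 in SF1-8 1 and 2 (log2 fold change −0.36, 95% interval −0.60 to −0.13, edgeR unadjusted p = 0.0096, adjusted p = 0.970). HHEX, a homeobox factor of early blood cells, had the next smallest p, and its log2 fold change of −0.60 rested on DMSO 1, which stood at 24.3 FPKM beside 13.2 in DMSO 2 and 12.1 and 11.9 in SF1-8 1 and 2. Without DMSO replicate 1 the log2 fold change of HHEX was −0.15. MYC varied most between DMSO libraries, at 5.65 and 19.8 FPKM, with 8.00 and 4.78 in SF1-8 1 and 2. MYB, STAT5A and STAT5B had log2 fold changes of 0.032, 0.040 and 0.070. FLI1, which opposes KLF1, and ERG, both factors of the megakaryocyte branch, were listed at 0 in 3 of the 4 libraries.

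Of 18 megakaryocyte markers 9 were tested, among them ITGA2B, ITGB3, GP1BB, GP6 and TUBB1. By edgeR 1 of the 9 had an unadjusted p under 0.05, against 4.33% of all entries, and 6 had log2 fold changes below 0 and 3 above. The 18 markers together summed to 22.9 and 23.7 FPKM in DMSO 1 and 2 and to 23.1 and 20.9 in SF1-8 1 and 2. Of the tested entries 3 name several genes. Listed at 0 in every library were 8 of the 18, among them PF4, PPBP, GP9 and VWF. THBS1, also made by many other cells, was at 1.17 FPKM in DMSO 1 and 0.783 in DMSO 2, against 0.481 and 0.274 in SF1-8 1 and 2 (log2 fold change −1.33, edgeR unadjusted p = 0.0103, adjusted p = 0.970). GP1BA had a log2 fold change of 0.50 (edgeR unadjusted p = 0.129). Of 8 progenitor markers 3 were tested, and CD34, FLT3 and HOXA9 were listed at 0. MECOM, between 3.40 and 4.48 FPKM, and MEIS1 had log2 fold changes of −0.18 and −0.22, and KIT, the third, one of 0.10. The 8 markers together summed to 11.9 and 9.56 FPKM in DMSO 1 and 2 and to 9.67 and 11.2 in SF1-8 1 and 2. Of 14 myeloid markers 9 were tested and MPO, ELANE, CTSG and S100A8 were listed at 0. CD68, in an entry shared with EIF4A1 and SENP3, had a log2 fold change of 0.30 (edgeR unadjusted p = 0.0520), and CD14 was at most at 0.0836 FPKM. Of 9 lymphoid markers 5 were tested, with CD3D between 3.82 and 5.14 FPKM and CD3E at most at 0.270. None of these lists held a gene past the adjusted threshold by edgeR.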
